A study of Mus musculus with 12 samples.

Results

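The immediate early AP-1 and EGR genes examined here were 10 genes taken by name from the table of 51826 mouse gene rows: Fos, Fosb and Fosl2 of the FOS family, Jun, Junb and Jund of the JUN family, Egr1, Egr2 and Egr3 of the EGR family, and Ier2. They were chosen by symbol and not by their level. All 10 were matched to a row, and 9 passed the filter on low counts, which Egr3 did not pass. RNA was sequenced from 12 mouse pre-B cell lines of the C57BL/6 strain, described by the labels as "Pro-/pre B cells" derived from bone marrow. Marrow of 2 mice was grown with IL7 for 7 days, and the cells were then transduced with the retroviral vector pMIG, either empty (EV) or carrying BCR-ABL1, the fusion kinase of Philadelphia chromosome-positive leukemia. Each mouse gave 3 lines per condition, named 1A to 1C for mouse 1 and 2A to 2C for mouse 2, so that 6 EV and 6 BCR-ABL1 lines were compared. The paper says that the triplicates came from 3 independent experiments, and the labels do not say whether the letters mark these. Both conditions stayed in IL7 for a further 48 h. The BCR-ABL1 lines were then held without IL7 for 1 week, whereas the EV lines kept IL7 for a similar time and were sorted for GFP. BCR-ABL1, the absence of IL7 and the absence of the sort therefore came together in every line and cannot be told apart. Lines of 1 mouse share that mouse, so the 6 lines per condition stand for 2 animals, and p-values measure the spread between lines. Total counts ran from 34791011 to 66011225 per line. EV lines 2A and 2B stood apart, with 36123 and 28517 genes detected against 20235 to 25143 in the other lines, and with 15.2% and 13.7% of reads in their 10 highest genes against 6.60% to 9.31%.

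Immediate early genes are switched on within minutes of a growth factor, antigen receptor or stress signal, without new protein synthesis, through kinases of the MAP kinase cascade and factors such as SRF with its ELK partners and CREB. FOS and JUN proteins pair through leucine zippers and form the factor AP-1. FOS proteins need a JUN partner to bind DNA, whereas JUN proteins can also pair among themselves. EGR proteins are zinc finger factors, and in the B lineage they are known as targets of pre-B cell receptor signaling. Both families are also known as quickly responding to handling of cells.

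The promoters of the members that differed between the conditions are shown first, because known signal response elements lie close to the start of these genes. Of the 10 members, 7 had an entry in the RefSeq promoter table (build GRCm38.p6), and Egr1, Egr3 and Ier2 had none. The entries of Fosl2 and Jund begin 671 and 1210 bp from the main annotated start and are not shown. Each sequence below is the 250 bases before the RefSeq start (for Egr2 1 of 5 starts in the table), 5′ to 3′ on the strand of the gene, with the matches of the motifs searched in capitals. Fos lies at chr12:85473640-85473889 (plus strand), Fosb at chr7:19310046-19310295 (minus), Jun at chr4:95052223-95052472 (minus), Junb at chr8:84978749-84978998 (minus) and Egr2 at chr10:67537619-67537868 (plus). Junb is included as the JUN gene with the smallest difference between the conditions.
Fos: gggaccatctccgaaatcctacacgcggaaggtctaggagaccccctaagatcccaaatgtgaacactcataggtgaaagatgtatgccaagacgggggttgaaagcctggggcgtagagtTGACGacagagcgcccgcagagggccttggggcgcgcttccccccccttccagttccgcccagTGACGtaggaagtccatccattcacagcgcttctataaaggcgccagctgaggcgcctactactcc
Fosb: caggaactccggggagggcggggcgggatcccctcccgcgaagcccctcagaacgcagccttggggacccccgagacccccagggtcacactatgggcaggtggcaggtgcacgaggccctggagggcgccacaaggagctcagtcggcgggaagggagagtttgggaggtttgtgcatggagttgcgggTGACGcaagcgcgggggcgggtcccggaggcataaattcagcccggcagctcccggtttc
Jun: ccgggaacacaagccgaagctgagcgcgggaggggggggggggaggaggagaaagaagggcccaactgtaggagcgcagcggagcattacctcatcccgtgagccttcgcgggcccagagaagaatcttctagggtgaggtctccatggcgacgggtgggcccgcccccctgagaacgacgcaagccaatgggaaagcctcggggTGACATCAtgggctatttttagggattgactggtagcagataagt
Junb: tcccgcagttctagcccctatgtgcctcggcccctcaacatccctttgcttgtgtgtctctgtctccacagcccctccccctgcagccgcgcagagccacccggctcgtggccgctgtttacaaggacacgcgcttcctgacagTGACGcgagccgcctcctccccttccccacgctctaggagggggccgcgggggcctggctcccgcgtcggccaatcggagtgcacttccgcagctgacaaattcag
Egr2: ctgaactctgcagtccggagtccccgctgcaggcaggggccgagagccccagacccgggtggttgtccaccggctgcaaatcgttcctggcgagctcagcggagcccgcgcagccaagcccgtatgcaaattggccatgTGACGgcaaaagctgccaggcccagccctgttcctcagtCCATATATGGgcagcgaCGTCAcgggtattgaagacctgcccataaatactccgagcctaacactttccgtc

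The motifs searched, on both strands, were TGACG, the core of the cyclic AMP response element, its full form TGACGTCA, which contains TGACG, the variant TGACATCA, the AP-1 site TGANTCA, the EGR site GCGTGGGCG and the CArG box bound by SRF. Fos held TGACG at positions -129 and -66, counted backwards from the start, Fosb held it at -60, and Junb at -106. Jun held TGACATCA from -45 to -38. Egr2 held a CArG box, CCATATATGG, from -72 to -63, TGACG at -111 and the same motif on the other strand at -55. Among 32851 promoters of this length, 17.8% held TGACG, 2.93% TGACATCA, 1.47% a CArG box, 6.75% TGANTCA, 1.55% TGACGTCA and 0.536% GCGTGGGCG. Genes with the same motif did not share a direction. TGACG was found before Fos and Fosb, which were higher in BCR-ABL1 lines, and before Egr2, which was lower. It was also found before Junb, which was not called between the conditions. A match describes the letters and is not evidence of a bound site. For these members, bases further upstream than the printed sequences were not searched. A motif not found here, such as a CArG box before Fos, may therefore lie outside the printed sequence.

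Of the 9 members tested, the FOS genes Fos and Fosb rose in BCR-ABL1 lines and the EGR gene Egr2 fell, against a 1.5-fold change with edgeR's quasi-likelihood test and Benjamini-Hochberg adjustment over all 15038 genes tested (threshold 0.05). Among all genes, the same test called 5.99% higher and 6.49% lower, together 12.5%. The other 6 tested members, Fosl2, Jun, Junb, Jund, Egr1 and Ier2, were not called. Fos, Fosb and Jun were higher in every BCR-ABL1 line than in any EV line, and Egr2 was lower in every one, which held for 12.1% and 13.5% of all genes tested. Each of these 4 members had an exact permutation p of 0.00216 (two-sided, over 924 labelings), the smallest that 6 against 6 lines can give, and 10 such tests were made. Within mouse 1 the test against 1.5-fold called 6 of the 9 members, beside 19.3% of all genes, and within mouse 2 it called 5, beside 12.9%. In these tests the lines of both mice share 1 estimate of the spread, and with the lines of mouse 2 fitted alone 3 members were called, Fos, Fosb and Jun.

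**Figure D1:**
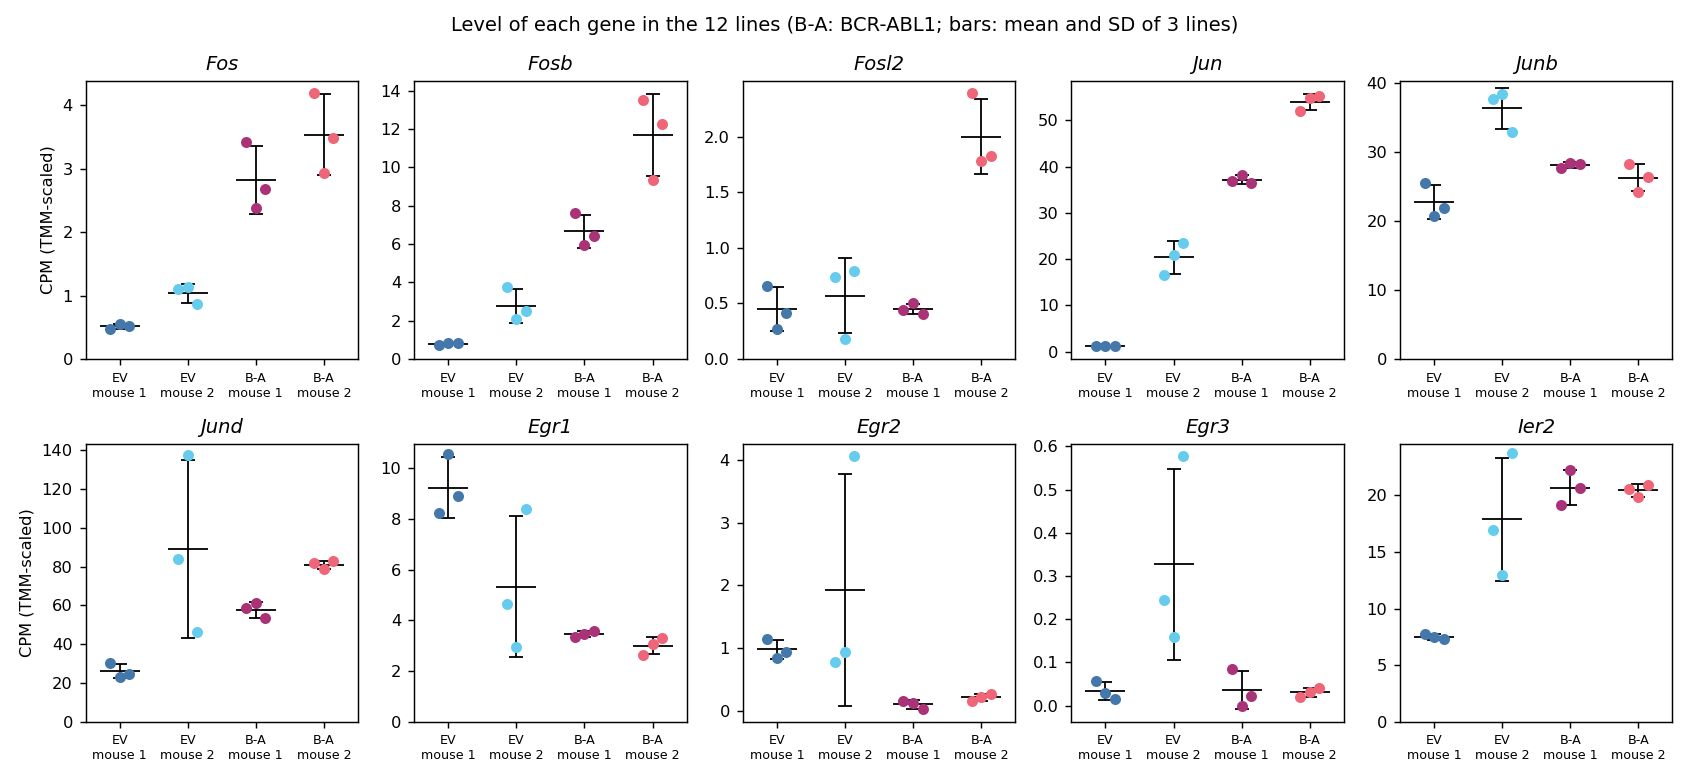
Level of each gene in the 12 lines, in CPM scaled by TMM, by condition and mouse, on linear axes of different range. Points are lines, horizontal bars the mean and error bars the SD of 3 lines, and Jun shows EV lines of mouse 1 near 1 CPM, those of mouse 2 near 20 CPM and all BCR-ABL1 lines above them.

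Fos, at chromosome 12 (GRCm38, bases 85473890 to 85477273, plus strand), encodes the founding FOS protein. Its level in the EV lines was lowest at 0.471, had a median of 0.707 and was highest at 1.13 CPM (read count relative to library size, scaled by TMM), and in the BCR-ABL1 lines these values were 2.38, 3.18 and 4.20 CPM. The groups did not overlap, and the lowest BCR-ABL1 line (1B) lay well above the highest EV line (2B). The means were 0.774 ± 0.301 and 3.18 ± 0.654 CPM (SD, n = 6 lines each), with a log2 fold change of 2.05 (SE 0.25, adjusted p = 0.000632 in edgeR), a 4.13-fold difference. The counts behind these values were 25 to 218 reads per line, so Fos was a low gene in all lines. Within each mouse the change was 2.45 in mouse 1 (adjusted p = 1.99e-05) and 1.78 in mouse 2 (adjusted p = 0.000756, both edgeR).

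Fosb, at chromosome 7 (bases 19302696 to 19310051, minus strand), encodes a FOS relative best known from neurons. EV lines of mouse 1 held 0.753, 0.823 and 0.829 CPM and those of mouse 2 held 3.74, 2.07 and 2.49 CPM. BCR-ABL1 lines held 7.63, 5.94 and 6.41 CPM in mouse 1 and 13.5, 9.35 and 12.2 CPM in mouse 2. Mouse 2 lines were thus higher than mouse 1 lines in both conditions, and the conditions did not overlap. The log2 fold change was 2.37 (SE 0.44, adjusted p = 0.00508 in edgeR), which corresponds to 5.18-fold. It was 3.05 within mouse 1 and 2.09 within mouse 2, and the difference of these changes did not pass the threshold (adjusted p = 0.0653 for the interaction in edgeR).

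Fosl2, at chromosome 5 (bases 32135801 to 32157842, plus strand), encodes the FOS-related protein FRA2. EV lines ranged from 0.179 to 0.793 CPM with a median of 0.537, and BCR-ABL1 lines from 0.409 to 2.39 CPM with a median of 1.14. The 3 BCR-ABL1 lines of mouse 2, at 2.39, 1.78 and 1.83 CPM, lay above all other lines, whereas those of mouse 1 lay within the range of the EV lines. The log2 fold change over all lines was 1.28 (SE 0.56, adjusted p = 0.277). Within mouse 2 it was 1.82 (adjusted p = 0.0369) and within mouse 1 it was 0.02 (adjusted p = 1), but the interaction of mouse and condition did not pass the threshold (adjusted p = 0.0834, all in edgeR). With the lines of mouse 2 fitted alone, Fosl2 was not called (1.83, adjusted p = 0.144 in edgeR).

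Jun had the widest spread of the members. It lies at chromosome 4 (bases 95049034 to 95052222, minus strand) as a gene of 1 exon and encodes c-JUN, the usual partner of FOS in AP-1. EV lines of mouse 1 held 1.15, 1.13 and 1.18 CPM, and EV lines of mouse 2 held 16.6, 20.9 and 23.6 CPM. BCR-ABL1 lines held 36.8, 38.3 and 36.5 CPM in mouse 1 and 51.9, 54.8 and 55.2 CPM in mouse 2. All BCR-ABL1 lines lay above all EV lines, but the EV lines of the mice formed separate groups. The log2 fold change was 2.09 with an SE of 0.92, and Jun was not called (adjusted p = 0.148). With mouse as a block, which takes the difference between mice out of the spread, the log2 fold change was 3.12 and Jun was called higher (adjusted p = 0.00628), as were 7.49% of all genes. Within a mouse it rose by 5.01 in mouse 1 (adjusted p = 1.35e-09) and by 1.40 in mouse 2 (adjusted p = 8.6e-05, all in edgeR).

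Junb and Jund encode JUN proteins that can counter c-JUN. Junb (chromosome 8, bases 84974484 to 84978718, minus strand) held 20.7 to 38.4 CPM in EV lines, with a median of 29.2, and 24.3 to 28.4 CPM in BCR-ABL1 lines, with a median of 27.9. The BCR-ABL1 lines lay inside the EV range, and the log2 fold change was -0.12 (SE 0.16, adjusted p = 1 in edgeR). The EV lines of mouse 1, at 20.7 to 25.4 CPM, and of mouse 2, at 32.9 to 38.4 CPM, lay to either side of most BCR-ABL1 lines. Jund (chromosome 8, bases 70698949 to 70700616, plus strand, 1 exon) held 23.1 to 138 CPM in EV lines, with a median of 38.3, and 53.5 to 82.8 CPM in BCR-ABL1 lines, with a median of 70.0. The EV lines 2A and 2B, at 84.0 and 138 CPM, were above every BCR-ABL1 line, and the other 4 EV lines, at 23.1 to 46.3 CPM, were below every one. The log2 fold change was 0.27 (SE 0.44, adjusted p = 1 in edgeR). Without the EV lines 2A and 2B it was 1.14, and Jund was then called higher (adjusted p = 0.0233 in edgeR).

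Of the EGR genes Egr2 was called lower in BCR-ABL1 lines, whereas Egr1 missed the threshold and Egr3 was below the filter. Egr2, at chromosome 10 (bases 67535475 to 67542188, plus strand), encodes a factor with roles in lymphocyte development and tolerance. It held 1.15, 0.837 and 0.937 CPM in the EV lines of mouse 1 and 0.767, 0.934 and 4.06 CPM in those of mouse 2. BCR-ABL1 lines held 0.153, 0.125 and 0.0227 CPM in mouse 1 and 0.154, 0.213 and 0.270 CPM in mouse 2. Every BCR-ABL1 line lay below every EV line, and the EV line 2C stood far above the other EV lines. Egr2 fell by 3.18 on the log2 scale (SE 0.49, adjusted p = 0.00266 in edgeR), which is 9.06-fold lower. It was still called with EV line 2C left out, at -2.53 (adjusted p = 0.000948 in edgeR). The BCR-ABL1 lines had only 1 to 14 reads each, so the size of this fold is imprecise. The change was -3.19 within each mouse (adjusted p = 0.0109 in mouse 1 and 0.00930 in mouse 2, edgeR). With the lines of mouse 2 fitted alone, Egr2 was not called (-3.17, adjusted p = 0.0705 in edgeR).

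Egr1, at chromosome 18 (bases 34859823 to 34864984, plus strand), encodes the most widely studied EGR factor, a direct target of ERK signaling. EV lines ranged from 2.96 to 10.6 CPM with a median of 8.31, and BCR-ABL1 lines from 2.64 to 3.59 CPM with a median of 3.33. The EV line 2B, at 2.96 CPM, lay within the BCR-ABL1 range, and the other 5 EV lines lay above it. The log2 fold change was -1.17 (SE 0.29), and the adjusted p of 0.0511 missed the threshold (edgeR). With mouse as a block Egr1 was called lower (log2 fold change -1.12, adjusted p = 0.0372), beside 7.18% of all genes, as it was without EV line 2A (adjusted p = 0.0273) or without EV line 2B (adjusted p = 0.00397, all edgeR). The call was lost with line pairs as a block (-1.06, adjusted p = 0.0940) and when the mouse block was combined with a correction for GC content and length (-0.98, adjusted p = 0.101, both edgeR).

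Egr3, at chromosome 14 (bases 70077203 to 70082614, plus strand), encodes a factor that acts beside EGR2 in lymphocytes. It had at most 32 reads in a line and did not pass the filter. EV lines of mouse 1 held 0.0154 to 0.0565 CPM, those of mouse 2 held 0.159 to 0.577 CPM, and BCR-ABL1 lines held 0 to 0.0848 CPM. EV line 2C was the highest, as it was for Egr2. Without a filter Egr3 had a log2 fold change of -2.27 between the conditions (adjusted p = 0.199 in edgeR). In the same setting it was called higher in EV lines of mouse 2 than of mouse 1 (difference 3.21, adjusted p = 0.00712 in edgeR). That call rests on 1 to 3 reads per EV line of mouse 1 and 8 to 32 per EV line of mouse 2. Leaving out the filter also moved the median log2 fold change of all genes to -0.84.

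Ier2, at chromosome 8 (bases 84661331 to 84662852, minus strand, 1 exon), encodes a small nuclear protein that is induced with the FOS and EGR genes. EV lines of mouse 1 held 7.26 to 7.79 CPM, EV lines of mouse 2 held 12.9 to 23.7 CPM, and BCR-ABL1 lines held 19.1 to 22.3 CPM. The BCR-ABL1 lines of both mice were at 1 level, and EV line 2C was above all of them. The log2 fold change over all lines was 0.70 (SE 0.29, adjusted p = 0.542). Within mouse 1 Ier2 rose by 1.46 (adjusted p = 0.000688), and within mouse 2 its change was 0.19 (adjusted p = 1, all edgeR).

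The lines of the mice were next compared within each condition, since much of the spread of the members lay between mice. Among EV lines, Fosb, Jun, Jund and Ier2 were higher in mouse 2 than in mouse 1 against a 1.5-fold change, and no tested member was called lower. The same test called 8.23% of all genes higher in mouse 2 and 10.3% in either direction. The differences, mouse 2 minus mouse 1, were 4.14 on the log2 scale for Jun (adjusted p = 6.3e-09), 1.78 for Jund (adjusted p = 0.00589), 1.77 for Fosb (adjusted p = 0.00163) and 1.25 for Ier2 (adjusted p = 0.00574, all edgeR). Among BCR-ABL1 lines only Fosl2 was called, higher in mouse 2 by 2.14 (adjusted p = 0.0494 in edgeR), beside 2.65% of all genes in either direction. The Fosl2 call was lost in 12 of 16 alternatives, whereas those of Jun, Fosb and Ier2 among EV lines were kept in all 17. That of Jund was kept in 16 and was lost without EV lines 2A and 2B (difference 0.83, adjusted p = 0.0746 in edgeR).

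**Figure D2:**
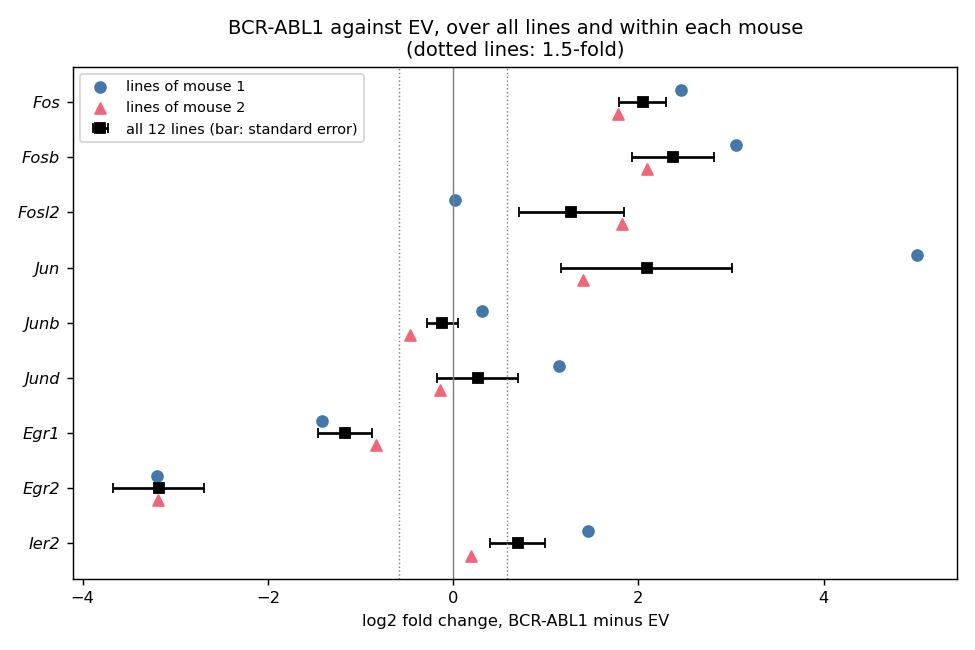
Log2 fold change of BCR-ABL1 against EV lines for the 9 tested members over all 12 lines (squares, bars show the standard error) and within mouse 1 (circles) and mouse 2 (triangles). Dotted lines mark 1.5-fold, and for Jun the circle at 5.01 and the triangle at 1.40 lie far apart, while for Egr2 both lie at -3.19.

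The change from EV to BCR-ABL1 itself differed between the mice for Jun, Junb and Ier2, as tested by the interaction of mouse and condition. The change in mouse 2 minus that in mouse 1 was -3.60 on the log2 scale for Jun (adjusted p = 2.24e-07), -0.78 for Junb (adjusted p = 0.00319) and -1.27 for Ier2 (adjusted p = 0.00508, all edgeR). Of all genes 16.9% passed this test, and 10.8% of all genes did so with a negative difference, as these members did. These 3 calls were kept in all 17 alternatives. For the called genes Fos, Fosb and Egr2 the interaction did not pass (adjusted p = 0.153, 0.0653 and 0.996 in edgeR). Several other values moved with the mouse among EV lines. The summed level of 12 myeloid marker genes was 0.307 to 0.520 CPM in the mouse 1 EV lines and 1.41 to 2.36 CPM in the mouse 2 EV lines, with 5 of the markers at 3 reads or fewer in all lines. The summed level of 8 T and NK cell markers was 35.8 to 42.0 and 11.2 to 27.8 CPM in the same lines. Of 10 heat shock genes tested, 1 was called higher in the EV lines of mouse 2 and none lower, and the median difference of the list was 0.067 on the log2 scale. The called gene, the inducible Hspa1b, held 1.98 to 2.62 CPM in the EV lines of mouse 1 against 6.85 to 24.9 CPM for mouse 2. Their part in the differences between mice was not tested.

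With EV lines 2A and 2B left out, Fos, Fosb and Egr2 were still called, with log2 fold changes of 2.39, 2.90 and -3.45, and Jun was not (2.74, adjusted p = 0.0901 in edgeR). The differences between EV lines of the mice were then 4.36 for Jun and 1.66 for Ier2, from 1 remaining line of mouse 2 that is assumed to vary like the other lines.

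Levels of different genes were compared as CPM per kb of exon, which allows for gene length. In EV lines the order by mean was Jund (34.6), Junb (12.8), Ier2 (8.34), Jun (3.37), Egr1 (1.62), Egr2 (0.426), Fos (0.329), Fosb (0.286), Fosl2 (0.0526) and Egr3 (0.0409 CPM per kb). In BCR-ABL1 lines it was Jund (41.6), Jun (14.3), Ier2 (13.5), Junb (11.8), Fosb (1.47), Fos (1.35), Egr1 (0.721), Fosl2 (0.126), Egr2 (0.0460) and Egr3 (0.00752 CPM per kb). Between neighbours in this order the ranges over lines overlapped for 8 of 9 pairs among EV lines, where only Fosb and Fosl2 were separate, and for 4 of 9 pairs among BCR-ABL1 lines. The overlapping pairs there were Jun and Ier2, Fosb and Fos, Fosl2 and Egr2, and Egr2 and Egr3. JUN genes were thus at far higher levels than FOS genes in both conditions, at a sum of 50.8 ± 32.7 against 0.667 ± 0.320 CPM per kb in EV lines and 67.7 ± 10.3 against 2.95 ± 0.837 CPM per kb in BCR-ABL1 lines (SD, n = 6 lines).

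The make-up of each family is a description of the same values. Jun made 1.22% to 1.52% of the summed JUN level in EV lines of mouse 1, 6.19% to 15.0% in those of mouse 2, and 19.7% to 22.9% in BCR-ABL1 lines, which was a narrow range over both mice. The share of Junb was 15.8% to 38.7% in EV and 14.1% to 22.1% in BCR-ABL1 lines, and Jund made more than any other JUN gene in every line. In the FOS family, Fosb made 31.0% to 52.4% in EV and 44.9% to 54.0% in BCR-ABL1 lines. The EGR sum was 2.09 ± 0.823 CPM per kb in EV and 0.775 ± 0.0713 CPM per kb in BCR-ABL1 lines, and Egr1 made 58.5% to 90.3% of it in EV lines and 89.2% to 98.5% in BCR-ABL1 lines. No EV line had an EGR sum inside the range of the BCR-ABL1 lines, which reached 0.825 CPM per kb against a lowest EV value of 0.971.

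**Figure D3:**
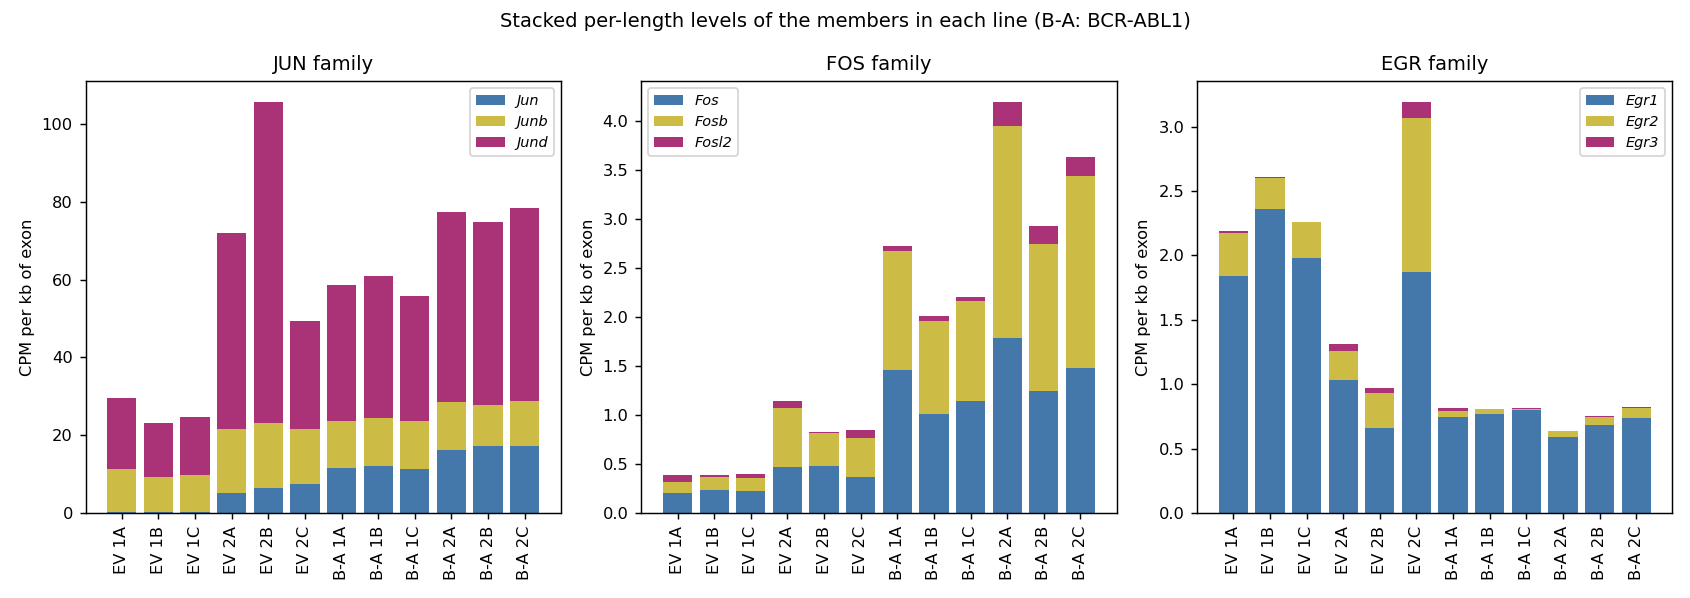
Stacked levels of the JUN, FOS and EGR members in each of the 12 lines, in CPM per kb of exon, with bars starting at 0 and a different range in each panel. In the JUN panel the share of Jun is 1.22% to 1.52% in EV lines 1A to 1C and 19.7% to 22.9% in BCR-ABL1 lines, and in the EGR panel EV line 2C is highest at 3.19 CPM per kb.

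Reads from genes on opposite strands could affect 3 members, because the strand setting of the counting was not stated. Jun shares 232 bp of exon with Junos (7.28% of its exon length), Junb shares 173 bp with Prdx2 (7.52%), and Jund shares 877 bp with Gm11175 (52.6%). Junos, at 0 to 0.705 CPM in EV lines against 0.305 to 0.654 CPM with BCR-ABL1, was below Jun in every line. Gm11175 held 1.30 to 3.48 CPM in the EV lines, and it fell to between 0.376 and 0.509 CPM with BCR-ABL1 (log2 fold change -2.24, adjusted p = 0.000359 in edgeR), whereas Jund was not called. Prdx2, at 134 to 186 and 137 to 175 CPM, was far above Junb in both conditions. If strand was not used, the level of Junb is uncertain, and so is that of Jund, which shares 52.6% of its exon length. The longest transcripts of Jund, Junb and Ier2 had a GC content of 67.1%, 62.6% and 60.9%, at percentiles 99.7, 98.5 and 97.3 of all genes tested, and a correction for GC content and length changed no call of a member between the conditions in the fit without a block, but ended the call of Egr1 in the fit with mouse as a block.

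Genes that act with or beside the members were counted in lists, with the median log2 fold change of all genes tested at -0.02 for reference. Of 13 other AP-1 and partner bZIP genes 9 were tested, 2 rose and none fell, with a median of 0.20, beside 5.99% of all genes called higher and 6.49% lower. Those that rose were Jdp2, a partner of JUN that can repress AP-1 (0 to 0.0613 CPM in EV lines against 0.386 to 3.58 CPM with BCR-ABL1, log2 fold change 6.04, adjusted p = 0.000531 in edgeR), and Batf, a JUN partner in lymphocytes (log2 fold change 2.24, adjusted p = 0.0228 in edgeR). Among 33 other immediate early genes 28 were tested, 3 rose and 3 fell, with a median of -0.04, beside the same shares of all genes. The genes that rose were Rhob, a small GTPase (3.93), Nfkbiz, a nuclear regulator of NF-kB (1.83), and Klf6, a zinc finger factor (1.53). Those that fell were Btg1, which restrains proliferation (-1.82), Zfp36, which promotes decay of short-lived mRNA (-1.27), and the clock gene Per1 (-0.89).

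Lists of regulators, kinases, ERK feedback genes and heat shock genes were counted in the same way. None of 9 genes for SRF, its partners, CREB1 and the EGR corepressors NAB1 and NAB2 was called (median 0.05), whereas 6.49% and 5.99% of all genes were called lower and higher. Of 20 kinases of the MAP kinase cascade only Rps6ka1, an ERK-activated kinase, was called higher (3.54, adjusted p = 0.00932 in edgeR). None was called lower (median -0.12). Of 8 ERK feedback genes only Dusp5, a nuclear ERK phosphatase, was called higher (2.31, adjusted p = 0.0119 in edgeR), and none was called lower. The log2 fold change was positive for 7 of these genes and negative for 1, with a median of 0.85. Their summed level was 142 to 299 CPM in EV lines against 414 to 490 CPM with BCR-ABL1, without overlap. Of 12 heat shock genes 10 were tested and none was called (median 0.50), and their summed level was 3032 to 7509 CPM in EV lines against 6748 to 7443 CPM with BCR-ABL1. The part of the sort and of handling in these levels was not tested.

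**Figure D4:**
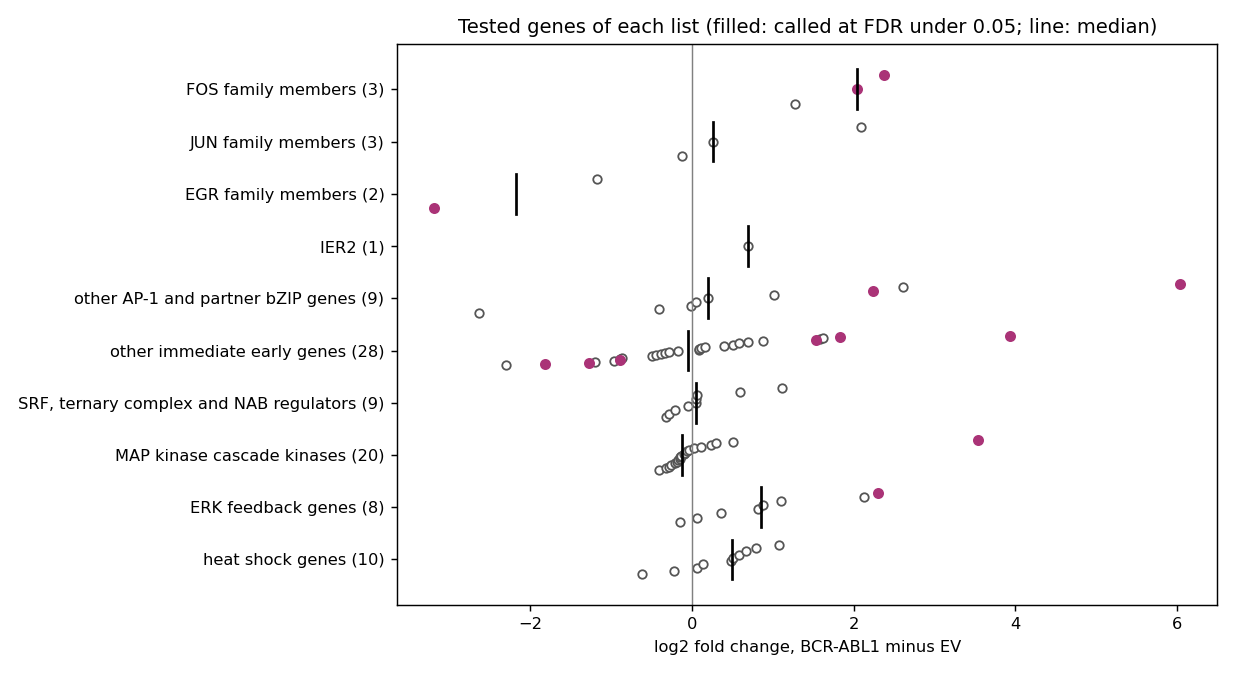
Log2 fold change of BCR-ABL1 against EV lines for every tested gene of the member families and of 6 lists of related genes, with the number tested in parentheses. Filled points passed the test, open points did not, and vertical bars mark the median, which is 2.05 for the FOS family, 0.27 for the JUN family and -0.04 for other immediate early genes.

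The genes with the pattern most like each member were found by the root mean square difference of centred log2 CPM over the 12 lines, among 11054 genes whose log2 CPM was 1 or more on average. For Fos they were P2rx3 (0.27) and Mid1ip1 (0.29), for Fosb Dtx4 (0.32) and Zfp442 (0.36), and for Jun Mfsd10 (0.31) and Matk (0.35). For Egr2 they were Plxnd1 (0.64) and Trib2 (0.75), which were less close, and for Egr1 Spag4 (0.28) and Mrpl52 (0.29). For Junb they were Gabarap (0.09) and Hist1h2bn (0.11), for Jund Tmem218 (0.19) and B230217O12Rik (0.25), for Ier2 Ssbp4 (0.11) and Nbn (0.12), and for Fosl2 Ptpn12 (0.46) and Itsn1 (0.55). Junb had the smallest spread of the tested members over lines (SD 0.26 of log2 CPM), and a flat gene is near to many others. Among the members themselves Fos and Fosb were the closest pair (0.44) and Jun and Egr2 the farthest (3.31). All of these are descriptions over the same 12 libraries.

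The labelled cell type was checked against marker genes. Of the B lineage markers, Cd79a, a signaling chain of the pre-B cell receptor, held 323 to 611 CPM in EV lines against 294 to 503 CPM with BCR-ABL1, and Pax5, the B lineage commitment factor, 369 to 569 against 310 to 436 CPM. Neither was called, whereas Cd22 was called lower (log2 fold change -1.36). Of 12 myeloid markers 1 was tested and not called, and they summed to 0.307 to 2.36 and 0.975 to 1.96 CPM. Of 8 T and NK cell markers 3 were tested, and Trac and Cd3d fell. The sum of the 8 was 11.2 to 42.0 CPM in EV lines against 0.664 to 4.77 CPM with BCR-ABL1. Trac, at 9.99 to 41.1 CPM, made most of the EV sum, but its highest BCR-ABL1 line held 1.34 CPM. Klrb1c, the third marker tested, had a positive change and was not called (log2 fold change 1.45, adjusted p = 0.497 in edgeR). Its highest EV line held 1.07 CPM and its highest BCR-ABL1 line 3.68 CPM. Cd3e and Cd4 were at 0 in every BCR-ABL1 line. Mast cell and basophil markers summed to at most 0.460 CPM, and Tpsb2 was at 0 in all lines. Of 6 erythroid markers Hbb-bt rose (1.72) and Hba-a1 was at 0 in all lines, with a sum of 1.26 to 6.79 and 5.94 to 12.7 CPM. Of 7 stromal and dendritic cell markers Flt3 rose (3.61), with a sum of 0.621 to 2.91 and 4.70 to 7.07 CPM. The sum of the T and NK cell list moved in the direction of Egr2, and those of the erythroid list and the stromal and dendritic list in that of Fos and Fosb. Their part in these results was not tested. In bulk RNA, fewer cells of a type and less RNA per cell cannot be told apart.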

How the data were processed

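Total RNA of 12 mouse pre-B cell lines was sequenced as stranded libraries. The authors deposited raw counts per gene, without normalization or pooling. The submitters' processing notes name FastQC 0.11.5, Trimmomatic 0.36, TopHat2 2.1.1, Bowtie2 2.3.2, featureCounts 1.5.3, R 3.6.1, edgeR 3.18.1 and GRCm38, and the strand setting of the counting is not given in the sources used here. The assignment of reads where genes overlap on opposite strands depends on that setting.

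Groups and mice were taken from the sample labels. Symbols and positions came from GENCODE M21, which held 51633 of 51826 identifiers. Genes were filtered with filterByExpr, scaled by TMM and tested by glmTreat against 1.5-fold on a quasi-likelihood fit (edgeR 4.0.16 with limma 3.58.1, R 4.3.3). P-values were adjusted by Benjamini-Hochberg over 15038 genes, with a threshold of 0.05. The study used these limits with a likelihood ratio fit, which was an alternative here, as was DESeq2 1.42.0. CPM values are TMM-scaled, and the prior count for log2 CPM was 2. The interaction of mouse and condition was tested with glmQLFTest in a fit of 4 groups. Scripts were tested on simulated data. Figures used matplotlib 3.10.9 (Python 3.11.15).

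All 10 members were named in every line, and of each list the called genes with the 3 largest changes in each direction. Hspa1b and the single cell type markers named beside the lists were chosen after their values were seen. The members and lists were chosen with earlier results of these data known. EV and BCR-ABL1 lines share the numbers 1A to 2C, and the labels give equal first digits to the same mouse. After subtraction of the condition means, EV and BCR-ABL1 lines correlated at 0.085 to 0.24 within a mouse and at -0.20 to -0.064 between mice. Since deviations from a mean cancel, the negative values follow in large part from the positive ones. Mouse was therefore used as a replicate block in alternatives, whereas the main test had no block. One B lineage marker and the sum of its list are not reported here. Among libraries of the same mouse and condition, no pair agreed within sampling noise, and other pairs were not compared in this way. Total counts per line were 34791011 to 66011225, and the floor was set at 3 counts per line, which covers counting error only. The alternatives were other scaling and filters, other tests, blocks, each mouse alone and each line left out. The correction for GC content and length (lowess per line), leaving out both EV lines 2A and 2B, and the likelihood ratio fit with a block were added after seeing the data.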

Additional observations from a re-analysis of the deposited data

Results flagged for a closer look

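Egr2 in EV line 2C was at 4.06 CPM, far from the other 5 EV lines, of which the nearest was at 1.15 CPM. The gap was 0.884 of the range of the EV lines, above Dixon's critical value for 6 lines. This was 1 of 20 groups examined, and chance alone flags about 1 in 20. Without this line Egr2 was still called lower in BCR-ABL1 lines.

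The change from EV to BCR-ABL1 differed between the mice by the test of the interaction in edgeR for 3 members. The change in mouse 2 minus that in mouse 1 was -3.60 on the log2 scale for Jun, -0.78 for Junb and -1.27 for Ier2. For Junb the change was 0.31 in mouse 1 and -0.47 in mouse 2, and neither passed the test within its mouse.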

How the results depend on the processing

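Fos and Fosb were called higher in all 26 alternatives, with log2 fold changes of 1.79 to 2.46 and 2.1 to 3.06. Egr2 was called lower in 23 of the 24 that gave it an adjusted p, and the exception was mouse 2 alone (-3.17, adjusted p = 0.0705). It was not tested at a CPM of at least 1 in 6 lines, and DESeq2 gave it no p-value (NA). Jun was called in 7 of 26, Egr1 in 8, Jund in 2, Ier2 in 1 and Fosl2 (of 25) and Junb in none. The count of members called higher was 2, and 5 in mouse 1 alone. It was 3 against no change, with the mouse block (also in the likelihood ratio fit and with the GC correction), with the line pair block, in mouse 2 alone and without EV lines 2A and 2B. The count called lower was 1, and it was 0 at a CPM of at least 1, with DESeq2 and in mouse 2 alone, and 2 with the likelihood ratio fit (with or without the mouse block), against no change, with mouse as a replicate block, in mouse 1 alone and without EV lines 2A and 2B. Leaving out each line in turn gave 2 members higher and 1 to 2 lower, where the second was Egr1 without EV line 2A or 2B. With line pairs as a replicate block Jun was called higher (3.15, adjusted p = 0.0485). Within mice the exact permutation p was 0.045 for both Fosl2 and Egr3, against 0.106 and 0.0779 over all lines.

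Directions reversed for Junb, to 0.32 in mouse 1 alone, 0.011 with the GC correction and mouse block and 0.10 without EV lines 2A and 2B, and for Jund, to -0.12 in mouse 2 alone. Over all genes 901 were called higher and 976 lower, against 3389 and 3897 in the test against no change, 2512 and 1877 in mouse 1 alone, 408 lower in mouse 2 alone, 1438 higher without EV lines 2A and 2B, and 807 to 1353 higher and 802 to 1434 lower with each line left out. EV line 2C gave the 1353 higher. The share of calls that were higher was 48.0%, and 60.1% in mouse 2 alone and 60.2% without EV lines 2A and 2B. Without a gene filter the median of all genes was -0.84. Members whose change differed between mice numbered 3, and 5 without a gene filter and 3 to 7 with each line left out (7 without EV line 2C). The 1 member that differed between BCR-ABL1 lines of the mice became 0 with RLE size factors, at a CPM of at least 1 and with the GC correction, and 0 to 1 with each line left out. The 4 that differed between EV lines were 4 to 6. The causes were not tested. Low counts limit Egr2, Egr3, Fosl2 and Fos.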

Other observations

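Other genes of the lists also differed between the EV lines of the mice. Of 28 other immediate early genes 3 were called higher in mouse 2 and none lower, against 8.23% and 2.02% of all genes. They were the nuclear receptor genes Nr4a1 (0.0565 to 0.200 CPM in mouse 1 and 0.198 to 10.7 CPM in mouse 2) and Nr4a2 (0.0289 to 0.169 and 3.46 to 5.95 CPM) and the stress gene Gadd45b (0.765 to 1.12 and 6.46 to 13.4 CPM). The Nr4a1 ranges overlapped. Of 9 other AP-1 and partner bZIP genes 4 were called higher in mouse 2, namely Batf, Atf3, Maf and Maff, with differences of 2.61, 4.04, 2.59 and 3.00 on the log2 scale.

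Of 8 ERK feedback genes 3 were called higher in EV lines of mouse 2 and none lower, against 8.23% and 2.02% of all genes. Spred1, which restrains RAF activation by RAS, held 0.184 to 0.282 CPM in the mouse 1 EV lines and 47.5 to 117 CPM in the mouse 2 EV lines, beside 143 to 182 CPM in BCR-ABL1 lines. Spry1 held 2.06 to 2.21 and 10.1 to 34.2 CPM, and Dusp5 4.68 to 5.57 and 9.66 to 38.2 CPM. Of 20 kinases of the MAP kinase cascade only the ERK-activated Rps6ka1 was called higher in EV lines of mouse 2, and none lower. The median difference of that list was -0.058 on the log2 scale. Rps6ka1 held 0.390 to 0.621 and 5.40 to 9.65 CPM, and 40.0 to 47.8 CPM in BCR-ABL1 lines. Like Jun, Spred1, Dusp5 and Rps6ka1 had EV lines of mouse 2 between the EV lines of mouse 1 and the BCR-ABL1 lines. For Spry1 the ranges overlapped. Spred1, Spry1, Dusp5 and Rps6ka1 were named after their values were seen, by their call between EV lines.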
